A study of Mus musculus with 8 samples.

Results

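The 39 Hox genes of the mouse were followed through RNA-seq (sequencing of polyadenylated RNA) of 8 libraries from 5 pluripotent cell lines. They are the gene entries whose name is Hox followed by the letter of a cluster (a, b, c or d) and a paralog number, and they make up 39 of the 22878 entries, which carry 22499 distinct names. The Hoxa cluster has 11 members, Hoxb 10, Hoxc 9 and Hoxd 9. In the mm9 genome they span chr6:52105366-52210874 (Hoxa), chr11:96055675-96229567 (Hoxb), chr15:102751562-102867283 (Hoxc) and chr2:74506367-74603199 (Hoxd). The study mapped nucleosomes and RNA to compare induced pluripotent stem cells (iPSCs) made from tissues of different germ layers with embryonic stem cells (ESCs). R1 is a mouse ESC line, and 16-6, 32, S8 and T2 are secondary iPSC lines. The iPSC lines were reprogrammed from somatic cells of mice that had been grown entirely from iPSCs by tetraploid complementation, and which carry doxycycline-inducible Oct4, Sox2, c-Myc and Klf4. Line 16-6 started from hematopoietic cells, 32 from adipocyte progenitors, S8 from epidermal cells and T2 from stomach lining cells, and each origin is represented by a single line. R1, 16-6 and 32 have 2 libraries each, S8 and T2 have 1 each, and the study describes such pairs as biological replicates, while the labels do not say whether a pair came from separate cultures. The p-values therefore measure the spread between these libraries. R1 and the iPSC lines were all grown in medium with LIF on mitomycin C-treated fibroblasts from embryos of ICR mice, so each library could also hold RNA of these feeder cells, and fewer feeder cells cannot be told apart from less RNA per cell.

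Hox proteins are homeodomain transcription factors that give cells their position along the head-to-tail axis of the embryo. The genes lie side by side in clusters in which the order along the chromosome follows the order of expression along the axis, from the low paralog numbers at the head end to the high ones at the tail end. In pluripotent cells the clusters are known to be held silent by Polycomb complexes, and retinoic acid, Wnt and Fgf signals with the Cdx factors open them when the embryo gastrulates, while fibroblasts keep the Hox genes of the body region they come from.

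Levels are given as FPKM, fragments scaled to transcript length and library size, after division of every deposited value by 12725.7, which brings the median library total to 1000000. The number of fragments behind a value was worked out from its confidence limits and came to between 15480674 and 16682395 per library. All 13 pluripotency genes examined were present in the 8 libraries. Of the markers of the tissues of origin, whose list sums are given at the end, some were low. Ptprc, the pan-leukocyte marker, reached at most 0.406 FPKM, Plin1 of adipocytes at most 0.101 and Krt5 of the epidermis at most 0.348. Tff2 of the stomach was listed at 0 throughout. Other entries of these lists reached 1 FPKM in at least 1 library. They were 4 of 10 hematopoietic, 3 of 6 adipocyte, 2 of 6 epidermis and 2 of 7 stomach entries.

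The Hox clusters were weakly transcribed in every line, and highest by far in 16-6. Summed over the 39 genes, the FPKM was 23.2 and 23.4 in R1, 87.7 and 81.8 in 16-6, 10.3 and 9.64 in 32, 23.0 in S8 and 22.4 in T2. Both libraries of 16-6 thus lay far above every other library, both libraries of 32 far below, and S8 and T2 within the counting error (95%, from the implied fragments) of R1. The mean of 16-6 was 3.64 times that of R1 and 8.49 times that of 32. The mean of 32 was 0.428 of that of R1. At least 1 FPKM on average was reached by 5 members in R1, 25 in 16-6, 4 in 32, 7 in S8 and 7 in T2, although at least 1 fragment was present for 38, 39, 37, 35 and 36 members in the same order. The median member stood at 0.428 FPKM in R1, 1.65 in 16-6, 0.129 in 32, 0.442 in S8 and 0.424 in T2.

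**Figure D1:**
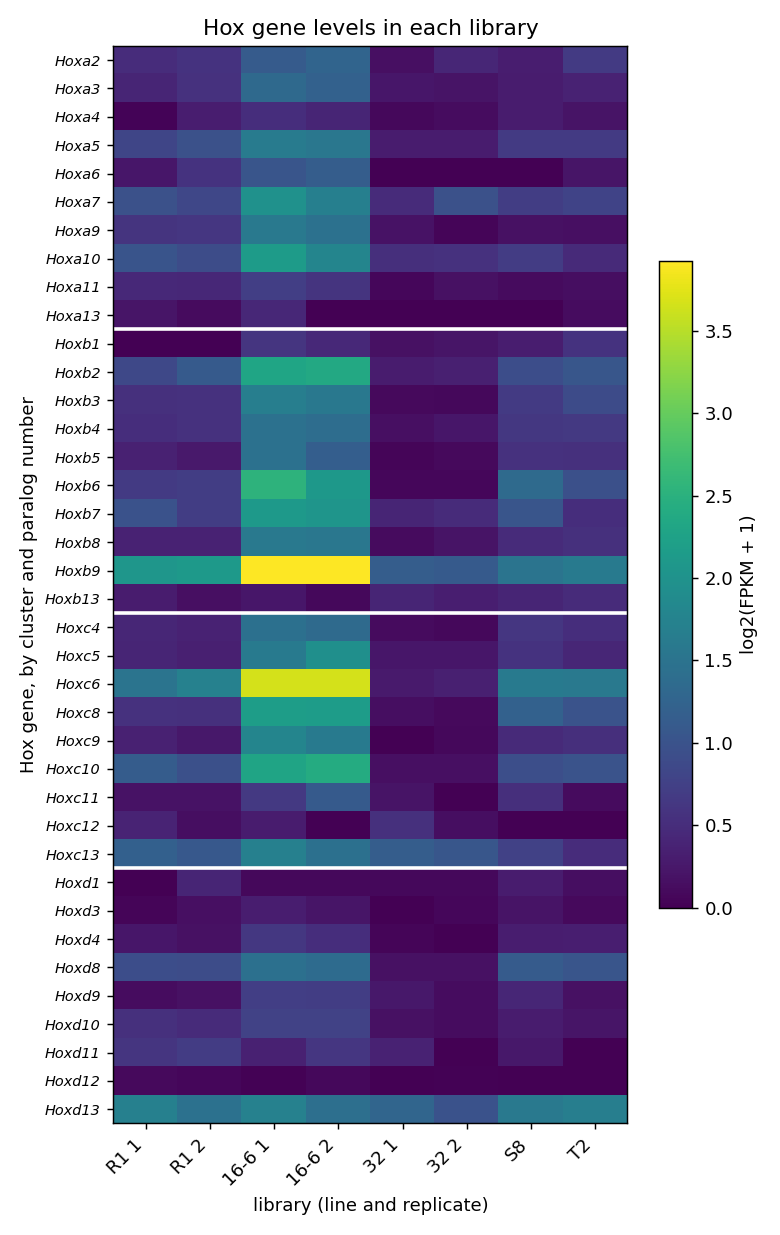
Level of each of 38 Hox genes (rows, by cluster and paralog number, white lines between clusters) in each of the 8 libraries (columns), as log2(FPKM + 1). The mean of the 2 columns of 16-6 is the brightest in most rows, with Hoxb9 and Hoxc6 at the top. The mean of the 2 columns of 32 is the darkest in 27 rows, level with S8 at 0 in those of Hoxa6 and Hoxa13.

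The line means were highest in 16-6 for 32 of the 39 members, whereas this held for 18.8% of the entries with an FPKM above 0 in any library. The remaining members peaked in T2 (Hoxb1, Hoxb13 and Hoxd13), R1 (Hoxd11 and Hoxd12), 32 (Hoxc12) and S8 (Hoxd1). The line means were lowest in 32 for 27 members, against 28.8% of those entries. Ties count as lowest in both figures, and Hoxa6 and Hoxa13 were at 0 in S8 as well as in 32. Both libraries of 16-6 exceeded both libraries of R1 for 32 members (30.5% of entries) and both libraries of 32 for 34 members (32.2% of entries). Both libraries of R1 exceeded both libraries of 32 for 28 members (40.3% of entries). By the mean of log2(FPKM + 1), 33 members were higher and 6 lower in 16-6 than in R1, and 5 were higher and 34 lower in 32 than in R1, while the median difference of all tested genes was -0.03 and -0.02. Quantile normalization, which forces 1 distribution on every library, turned the sign of Hoxb13, Hoxd12 and Hoxd13 in 16-6 minus R1, and of Hoxa4, Hoxa7, Hoxc5, Hoxc11 and Hoxc13 in 32 minus R1.

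Of the 30 members with paralog numbers 1 to 10, 29 were higher in both 16-6 libraries than in both R1 libraries, the exception being Hoxd1. Of the 9 members with numbers 11 to 13, which are expressed in the most posterior body and the distal limb of the embryo, 3 were (Hoxa11, Hoxc11 and Hoxc13). Over all entries with an FPKM above 0 in any library, 30.5% were, which is close to the share in groups 11 to 13. The division between groups 10 and 11 was chosen after the values were seen, and 6 of these 9 members stayed below the FPKM filter. Summed by paralog group, the mean of 16-6 relative to R1 was 3.72-fold for group 2, 5.58-fold for group 6, 4.58-fold for group 9 and 3.16-fold for group 10. It was 1.73-fold for group 11, 0.56-fold for group 12 and 1.22-fold for group 13. The values for group 12 rest on 3 and 3 fragments in 16-6 and 7 and 4 in R1 and are therefore imprecise. Between group 1 and group 10 the lowest of these ratios was 3.16 and the highest 5.58, with no steady trend along the clusters.

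The clusters differed in how far 16-6 stood out. The summed FPKM of the Hoxc genes was 6.22 and 5.83 in R1 and 28.3 and 28.8 in 16-6, a ratio of means of 4.74. For Hoxb it was 7.20 and 7.37 in R1 and 34.7 and 31.8 in 16-6, a ratio of 4.56. For Hoxa it was 5.25 and 5.81 and 18.1 and 15.3, a ratio of 3.03. The Hoxd cluster moved least, from 4.52 and 4.41 in R1 to 6.54 and 5.89 in 16-6, a ratio of 1.39, and these pairs of libraries still did not overlap. Hoxd13 alone held 2.01 of the mean Hoxd sum of 4.47 in R1 and 2.00 of that of 6.21 in 16-6. The Hoxd ratio therefore rests in large part on this 1 gene. The Hoxb and Hoxc genes made up 31.3% and 25.9% of the Hox FPKM in R1 and 39.2% and 33.7% in 16-6, while Hoxd made up 19.2% in R1 and 7.33% in 16-6. In 32 the sums were 2.84 and 3.50 for Hoxa, 2.62 and 2.78 for Hoxb, 2.57 and 1.94 for Hoxc and 2.29 and 1.42 for Hoxd. Each was below the R1 libraries on this scale. Quantile normalization moved the tested genes of 32 up by a median of 0.14 (log2) relative to R1 and brought the Hoxa sum of 32 to 4.36 against 4.08 in R1, so the order of R1 and 32 for Hoxa depends on the scaling. For the other clusters 32 stayed below R1 under that scaling.

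The differences were tested with limma on log2(FPKM + 1) over the 13693 entries that reached 1 FPKM in any library. A gene was called where its log2 difference was 1 or more in size and its p, adjusted after Benjamini and Hochberg over all tested entries, stayed under 0.05. Of the 39 members, 26 passed the filter on low values, 12 of them also without the 16-6 libraries and 14 only through 16-6, and these 14 could enter the test only because they were high there. The counts below are over the 39 members, 13 of which were not tested. Against R1, 15 members were called higher in 16-6 and 0 lower by limma (25 and 0 at an unadjusted p below 0.05), whereas 3.58% of all tested genes were called higher. Of the 15, 9 would have passed the filter without 16-6. The adjusted p alone was passed by 25 members in the direction of 16-6, against 25.7% of tested genes, and these include the 14 that passed the filter only through 16-6. The 15 comprised 2 Hoxa, 7 Hoxb and 6 Hoxc genes, all of paralog groups 1 to 10. Among the Hoxd genes, Hoxd8 and Hoxd13 alone were tested. Against line 32, 21 members were called higher in 16-6 (9.22% of tested genes), 9 of which would have passed the filter without 16-6.

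Line 32 was lower than R1 in most members, but Hoxc6 alone was called lower (8.23% of all tested genes were called lower) and 0 were called higher (1.54%), with 1 member higher and 19 lower at an unadjusted p below 0.05. By the adjusted p alone, 15 members were lower, against 32.9% of tested genes. A member below 1 FPKM in both R1 libraries could not be called lower, since its log2(FPKM + 1) there is under 1. Of the members, 5 averaged at least 1 FPKM in R1. The count called lower therefore cannot be set against the share of all genes. With 0.1 instead of 1 added to the FPKM, 15 members were called lower and 1 higher. In that fit 2258 of 13693 entries were called in either direction. In S8 and in T2, 0 members were called against R1 by limma, against 16.7% and 10.5% of all tested genes, and 6 and 7 members had an unadjusted p below 0.05. The same test without the trend also gave 0 in both. S8 and T2 each rest on 1 library, whose spread is assumed to be that of the replicated lines. As in 32, members below 1 FPKM in both R1 libraries could not be called lower. The absence of calls therefore does not show that the members were more alike between the lines than other genes. By the adjusted p alone, 5 members differed in S8 (66.7% of tested genes) and 7 in T2 (57.9%). Averaged over the 4 iPSC lines, the comparison with R1 gave 0 called members (6.41% of tested genes), with an unadjusted p below 0.05 for 10. A difference anywhere between the 5 lines, with a range of at least 1 (log2), was called for 23 members against 34.5% of tested genes. These include all of the 14 members that passed the filter only through 16-6, except Hoxa2 and Hoxc11. Since those entered the test by being high in 16-6, the count cannot be set against the share of all genes.

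**Figure D2:**
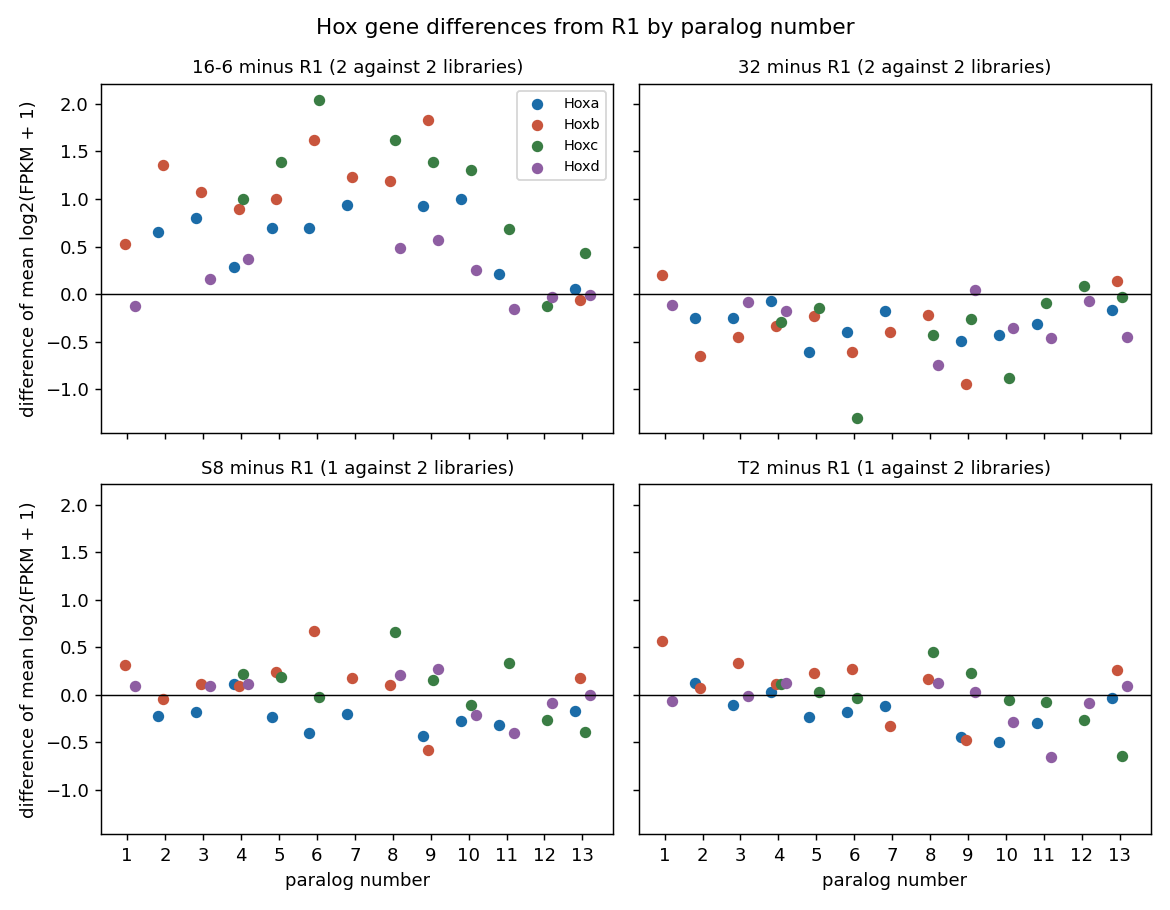
Difference of the mean log2(FPKM + 1) from R1 for each of 38 Hox genes (points, coloured by cluster), by paralog number, in one panel per iPSC line. In 16-6 the points of groups 1 to 10 lie above 0 apart from Hoxd1 and those of groups 11 to 13 lie near 0 or at most 0.69 above it. The comparisons share the R1 libraries.

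The anterior members, with paralog numbers 1 to 4, pattern the hindbrain, the neural crest and the neck. Hoxb1, which acts in the hindbrain, had 0 fragments in both R1 libraries and some in every iPSC library, namely 23 and 16 in 16-6, 6 and 7 in 32, 9 in S8 and 20 in T2. Set against a limit of 3 fragments over both R1 libraries, its level was at least 13.3-fold higher in 16-6 and at least 14.5-fold higher in T2 than in R1 (counting error only). It stayed below the FPKM filter and was not tested in the main comparison. Hoxd1 had at most 6 fragments in any library.

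Hoxb2, which acts in the segment of the facial nerve, stood at 0.8 and 1.16 FPKM in R1, 3.95 and 4.16 in 16-6, 0.233 and 0.272 in 32, 0.904 in S8 and 1.06 in T2. The 16-6 libraries were above all others and the 32 libraries below all others, with a log2 difference between them of 2.01 ± 0.11 (SE, adjusted p = 0.00012) and between 16-6 and R1 of 1.36 ± 0.11 (SE, adjusted p = 0.0006). Hoxa2, needed for the identity of the branchial arches, was at 0.418 and 0.496 in R1, 1.18 and 1.39 in 16-6, 0.113 and 0.34 in 32, 0.249 in S8 and 0.589 in T2. Its difference between 16-6 and R1 of 0.65 ± 0.12 (SE, adjusted p = 0.008) stayed under the fold minimum.

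Hoxa3, which is required for the thymus and the parathyroid, was at 0.319 and 0.475 FPKM in R1, 1.52 and 1.32 in 16-6, 0.184 and 0.155 in 32, 0.234 in S8 and 0.291 in T2. Hoxb3 stood at 0.45 and 0.476 in R1, 2.21 and 1.97 in 16-6, 0.0753 and 0.0608 in 32, 0.582 in S8 and 0.851 in T2. Both genes were highest in 16-6 and low in 32, and Hoxb3 was called against R1 with a log2 difference of 1.08 ± 0.08 (SE, adjusted p = 0.00047), while that of Hoxa3 was 0.80 ± 0.09 (SE, adjusted p = 0.002). The span of Hoxa3 runs over those of Hoxa4, Hoxa5 and Hoxa6 in the files, so the division of fragments among these 4 entries is uncertain.

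Hoxb4, known for expanding hematopoietic stem cells when overexpressed, was at 0.432 and 0.479 in R1, 1.76 and 1.64 in 16-6, 0.123 and 0.182 in 32, 0.554 in S8 and 0.577 in T2. Hoxc4 was at 0.337 and 0.292 in R1, 1.73 and 1.55 in 16-6, 0.0836 and 0.056 in 32, 0.534 in S8 and 0.424 in T2. In both, S8 and T2 lay slightly above the R1 libraries, and 16-6 lay above all of them. The log2 difference between 16-6 and R1 was 0.89 ± 0.08 (SE, adjusted p = 0.00076) for Hoxb4, which missed the fold minimum, and 1.00 ± 0.08 (SE, adjusted p = 0.0006) for Hoxc4, which passed it. Without the second library of R1 or the first of 16-6, the difference of Hoxc4 fell to 0.98 or 0.95 and was no longer called.

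The central members, numbers 5 to 8, act in the neck, the shoulder and the thorax. Hoxa5, needed for the lung and the airway, was at 0.77 and 0.965 FPKM in R1, 2.10 and 1.93 in 16-6, 0.224 and 0.224 in 32, 0.59 in S8 and 0.584 in T2. Hoxb5 was at 0.277 and 0.21 in R1, 1.77 and 1.25 in 16-6, 0.0376 and 0.0755 in 32, 0.472 in S8 and 0.458 in T2. Hoxc5 was at 0.33 and 0.275 in R1, 2.03 and 2.85 in 16-6, 0.182 and 0.177 in 32, 0.483 in S8 and 0.334 in T2. In all 3 the 16-6 libraries were above every other library and the 32 libraries below every other. Between 16-6 and R1 the log2 difference was 0.69 ± 0.09 (SE, adjusted p = 0.0023) for Hoxa5, 1.00 ± 0.12 (SE, adjusted p = 0.0021) for Hoxb5 and 1.39 ± 0.13 (SE, adjusted p = 0.00098) for Hoxc5. Hoxb5 and Hoxc5 were called, and Hoxb5 was not without the second library of R1 (0.97) or the first of 16-6 (0.85).

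Hoxc6, the member with the largest log2(FPKM + 1) difference between 16-6 and 32, stood at 1.83 and 2.31 in R1, 11.6 and 11.7 in 16-6, 0.223 and 0.268 in 32, 2.02 in S8 and 1.99 in T2. The 16-6 libraries rested on 266 and 274 fragments and the 32 libraries on 5 and 6. S8 and T2 fell between the 2 R1 libraries, and 16-6 and 32 lay apart from R1 on opposite sides. Its log2 difference was 2.05 ± 0.09 (SE, adjusted p = 0.00017) for 16-6 minus R1, -1.30 ± 0.09 (SE, adjusted p = 0.00037) for 32 minus R1 and 3.35 ± 0.09 (SE, adjusted p = 1.7e-05) for 16-6 minus 32. In FPKM, 16-6 was 5.63 (95% counting interval 4.53 to 7.04) relative to R1. The call in 32 was lost under quantile normalization, where the difference was -0.99.

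Hoxb6 was at 0.579 and 0.641 in R1, 4.81 and 3.24 in 16-6, 0.053 and 0.0518 in 32, 1.56 in S8 and 0.946 in T2, with a log2 difference between 16-6 and R1 of 1.63 ± 0.16 (SE, adjusted p = 0.0011). S8 and T2 both exceeded R1 for this gene. Hoxa6 was at 0.174 and 0.489 in R1, 1.04 and 1.24 in 16-6, 0 and 0 in 32, 0 in S8 and 0.164 in T2, but with at most 7 fragments per library. Its difference between 16-6 and R1 was 0.69 ± 0.14 (SE, adjusted p = 0.0099).

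Hoxa7 was at 0.964 and 0.781 FPKM in R1, 2.95 and 2.23 in 16-6, 0.394 and 0.969 in 32, 0.631 in S8 and 0.721 in T2. Hoxb7 was at 0.973 and 0.64 in R1, 3.34 and 3.11 in 16-6, 0.32 and 0.401 in 32, 1.04 in S8 and 0.429 in T2. The 16-6 libraries led in both, but the 2 libraries of 32 overlapped those of R1 for Hoxa7. The log2 difference between 16-6 and R1 was 0.93 ± 0.20 (SE, adjusted p = 0.013) for Hoxa7 and 1.23 ± 0.11 (SE, adjusted p = 0.00093) for Hoxb7, of which Hoxb7 was called.

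All 3 members of group 8 were ordered alike. Hoxb8, which is active in hematopoietic progenitors, was at 0.301 and 0.301 in R1, 2.0 and 1.94 in 16-6, 0.0833 and 0.149 in 32, 0.396 in S8 and 0.455 in T2. Hoxc8, which patterns the thorax and its motor neurons, was at 0.472 and 0.465 in R1, 3.53 and 3.49 in 16-6, 0.103 and 0.0754 in 32, 1.33 in S8 and 1.0 in T2. Hoxd8 was at 0.908 and 0.873 in R1, 1.72 and 1.59 in 16-6, 0.129 and 0.128 in 32, 1.19 in S8 and 1.06 in T2. For each of them S8 and T2 were above both R1 libraries and below both 16-6 libraries, and 32 was below all. The log2 difference between 16-6 and R1 was 1.19 ± 0.07 (SE, adjusted p = 0.00035) for Hoxb8, 1.62 ± 0.07 (SE, adjusted p = 0.00014) for Hoxc8 and 0.49 ± 0.07 (SE, adjusted p = 0.0038) for Hoxd8, of which the first 2 were called. Hoxd8 was the Hoxd member called between 16-6 and 32, with 1.23 ± 0.07 (SE, adjusted p = 0.00016).

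The posterior members, numbers 9 to 13, act in the trunk, the limb and the urogenital tract. Hoxb9, which patterns the ribs, was the most abundant Hox gene in R1 and in 16-6. Its FPKM was 3.16 and 3.36 in R1, 14.1 and 14.1 in 16-6, 1.24 and 1.17 in 32, 1.85 in S8 and 2.06 in T2. The order of the lines was 16-6, R1, T2, S8 and 32, with no overlap between the replicated lines. The log2 difference was 1.83 ± 0.06 (SE, adjusted p = 0.00011) for 16-6 minus R1, -0.95 ± 0.06 (SE, adjusted p = 0.00028) for 32 minus R1 and 2.78 ± 0.06 (SE, adjusted p = 8.4e-06) for 16-6 minus 32. The fold in FPKM of 16-6 over R1 was 4.33 (95% counting interval 3.76 to 4.99). Hoxb9 and Hoxc6 together held 30.4% of the Hox FPKM in 16-6, 22.9% in R1 and 14.5% in 32. Hoxb9 was also the single member with an FPKM of at least 1 in all 8 libraries.

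Hoxa9, known for its role in hematopoietic progenitors and leukemia, was at 0.507 and 0.536 in R1, 2.01 and 1.76 in 16-6, 0.136 and 0.0345 in 32, 0.13 in S8 and 0.118 in T2. R1 lay between 16-6 and the other 3 lines. Its log2 difference between 16-6 and R1 was 0.92 ± 0.09 (SE, adjusted p = 0.0011), just under the fold minimum, and between 16-6 and 32 it was 1.41 ± 0.09 (SE, adjusted p = 0.00022), which was called. Hoxc9, which organises the thoracic motor columns, was at 0.282 and 0.19 in R1, 2.44 and 2.06 in 16-6, 0 and 0.062 in 32, 0.376 in S8 and 0.449 in T2. It was called between 16-6 and R1 with 1.39 ± 0.10 (SE, adjusted p = 0.00045).

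Hoxa10, which acts in the uterus, was at 1.02 and 0.888 in R1, 3.43 and 2.46 in 16-6, 0.437 and 0.469 in 32, 0.618 in S8 and 0.384 in T2. Hoxc10, active in lumbar motor neurons, was at 1.20 and 0.941 in R1, 3.90 and 4.31 in 16-6, 0.12 and 0.123 in 32, 0.927 in S8 and 0.995 in T2. In both, 16-6 was above every other library. The log2 difference between 16-6 and R1 was 1.00 ± 0.13 (SE, adjusted p = 0.0029) for Hoxa10 and 1.30 ± 0.09 (SE, adjusted p = 0.00048) for Hoxc10, and the call of Hoxa10 was lost without the second library of R1 (0.95) or the first of 16-6 (0.82).

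Of paralog groups 11 to 13, 3 members were tested. Hoxc11 was at 0.142 and 0.147 in R1, 0.562 and 1.17 in 16-6, 0.156 and 0 in 32, 0.442 in S8 and 0.0882 in T2, on at most 15 fragments. Hoxc13, a regulator of hair keratins, was at 1.31 and 1.11 in R1, 2.26 and 1.72 in 16-6, 1.24 and 1.07 in 32, 0.687 in S8 and 0.416 in T2. Its log2 difference between 16-6 and R1 was 0.43 ± 0.12 (SE, adjusted p = 0.03). Hoxd13, which shapes the digits, was at 2.27 and 1.75 in R1, 2.31 and 1.70 in 16-6, 1.43 and 0.975 in 32, 2.0 in S8 and 2.20 in T2. The 16-6 and R1 libraries of Hoxd13 overlapped, the log2 difference was -0.01 ± 0.16 (SE, adjusted p = 0.99), and the fold in FPKM was 1.0 (95% counting interval 0.722 to 1.39). In FPKM, Hoxd13 was above Hoxb6 and Hoxc10 in R1 and below both in 16-6.

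The 13 members that were not tested are Hoxa4, Hoxa11, Hoxa13, Hoxb1, Hoxb13, Hoxc12, Hoxd1, Hoxd3, Hoxd4 and Hoxd9 to Hoxd12. They reached at most 0.711 FPKM and 24 fragments in any library. Among them, Hoxd9, which with its cluster neighbours patterns the limb, had 2 and 3 fragments in R1, 14 and 14 in 16-6, 4 and 2 in 32, 7 in S8 and 3 in T2. Hoxd4 had 5 and 4 in R1, 16 and 12 in 16-6, 1 and 0 in 32, 7 in S8 and 8 in T2. The counts of both were higher in the 16-6 libraries than elsewhere. Hoxb13, a prostate factor, had between 1 and 7 fragments in each library with no lead of 16-6, and a fold of 16-6 over R1 of 0.702 (95% counting interval 0.146 to 2.96).

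In S8 and T2 the Hox sum, close to that of R1, was made up differently along the clusters. Relative to R1, the summed FPKM of the anterior members was 1.24-fold in S8 and 1.62-fold in T2. That of the posterior members was 0.716-fold in S8 and 0.666-fold in T2. Within Hoxa the posterior genes stood at 0.427 and 0.36 of R1. By single genes, S8 was above both R1 libraries for 18 members, below both for 16 and between them for 5, and T2 for 16, 15 and 8. A single library can fall outside the range of 2 others without any difference between the lines. The share over all entries was not computed, so these counts show nothing particular to the Hox genes. By the adjusted p alone, Hoxb6 and Hoxc8 were among the higher members and Hoxa9 and Hoxb9 the lower ones in S8, and Hoxb3 and Hoxc8 were among the higher and Hoxa9, Hoxa10, Hoxb9 and Hoxc13 the lower in T2, all under the fold minimum. How S8 and T2 were sequenced cannot be told apart from their line.

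Upstream sequence is shown for 2 members that behaved differently, namely Hoxb8, which was called higher in 16-6 than in R1, and Hoxd13, whose 16-6 and R1 libraries overlapped. Each window holds the 250 bases before the outermost start of the gene in the files (mm9, equal to NCBIM37), read 5′ to 3′ on the strand of the gene, whose strand came from the GENCODE annotation of the same build. Capitals mark matches to the TATA box TATAAA, the CCAAT box CCAAT, the half-site AGGTCA of retinoic acid receptors, the Cdx core TTTATG and the Pbx-Hox site TGATNNAT, on either strand. The run of 8 capitals in Hoxd13 is a pair of overlapping matches on opposite strands.
Hoxb8, chr11:96142969-96143218, forward strand: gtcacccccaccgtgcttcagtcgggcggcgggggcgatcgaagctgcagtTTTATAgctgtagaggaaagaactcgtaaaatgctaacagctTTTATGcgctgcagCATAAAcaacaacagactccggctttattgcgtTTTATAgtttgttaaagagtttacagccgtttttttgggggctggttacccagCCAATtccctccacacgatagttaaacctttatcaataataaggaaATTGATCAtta
Hoxd13, chr2:74506117-74506366, forward strand: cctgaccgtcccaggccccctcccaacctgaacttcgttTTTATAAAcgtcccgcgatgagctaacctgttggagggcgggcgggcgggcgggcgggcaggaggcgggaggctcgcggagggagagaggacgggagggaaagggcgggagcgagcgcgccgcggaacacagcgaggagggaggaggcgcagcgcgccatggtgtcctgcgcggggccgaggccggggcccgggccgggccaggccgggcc
Neither of these windows overlaps an annotated exon, whereas 26 of the 39 members' windows do, and the outermost start in the files equals the 5′ end of the GENCODE gene for 10 members, so the windows are not all promoters. The Hoxb8 window holds 2 Cdx cores, 1 Pbx-Hox site, 2 TATA boxes and 1 CCAAT box, and that of Hoxd13 holds 2 overlapping TATA matches. Over all 39 members, 8 windows (20.5%) held a Cdx core, against 9.34% of 21836 windows of the same length before genes. A Pbx-Hox site was found in 8 (20.5% against 6.66%), a CCAAT box in 20 (51.3% against 35.6%), a receptor half-site in 7 (17.9% against 11.9%) and a TATA box in 6 (15.4% against 11.9%). A match is a description of the sequence only. GC content ranged from 40.4% to 85.2% over the members, with a median of 58.0% against 56.0% in all windows.

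The clusters also contain microRNA genes and long RNAs. Gm53, an entry between Hoxb13 and Hoxb9, was at 1.07 and 0.804 FPKM in R1, 8.53 and 8.35 in 16-6, 1.18 and 2.29 in 32, 0.918 in S8 and 1.81 in T2. It was called higher in 16-6 than in R1 (log2 difference 2.29 ± 0.21, SE, adjusted p = 0.00087) and than in 32 (1.82 ± 0.21, adjusted p = 0.0013). Hoxa11as, the antisense RNA of Hoxa11, was at 0.802 and 0.93 in R1, 1.35 and 1.67 in 16-6, 0.164 and 0.162 in 32, 0 in S8 and 0.202 in T2. Reads of Hoxa11 and its antisense RNA cannot be told apart, since the counting is not stated to use strand. The entry of Mir196a-1, which lies in the same interval of the Hoxb cluster, had 1 and 3 fragments in the 16-6 libraries and 0 in every other, which is too few for a fold change although limma called it, while Mir196b, Mir196a-2, Mir10b and Mir615 were listed at 0 throughout and Mir10a had 1 fragment in R1. These libraries were made from polyadenylated RNA and do not measure the mature microRNA. The mature sequences (RefSeq, GRCm38.p6) are shown because miR-196 is known to target Hox transcripts of the clusters that encode it, and the capitals mark bases 2 to 8, the seed.
mmu-miR-196a-5p: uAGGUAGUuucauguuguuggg
mmu-miR-196b-5p: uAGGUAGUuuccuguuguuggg
mmu-miR-10a-5p: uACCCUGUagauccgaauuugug
mmu-miR-10b-5p: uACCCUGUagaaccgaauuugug
Both miR-196 forms share the seed AGGUAGU, and both miR-10 forms share ACCCUGU. Among the GENCODE transcripts of the members, the closest complement of miR-196a-5p lay in the 3′ untranslated region of Hoxb8, where 21 of 22 bases pair and the remaining one (lower case, opposite base 5 of the microRNA) is a G opposite a U.
Hoxb8 site: CCCAACAACAUGAAACUgCCUA
The same letters occur in an annotated transcript of Hoxb7. Hoxb8 was called higher in 16-6 than in R1 by 1.19 ± 0.07 (SE, adjusted p = 0.00035), and no mature microRNA value is at hand to set beside it.

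The neighbours of the clusters were compared next. The 5 entries on each side of each cluster, 40 in all and 33 tested, gave 0 called higher and 1 called lower (Gm11517) by limma in 16-6 against R1, with 3 higher and 15 lower at an unadjusted p below 0.05. In 32 against R1, 1 was called higher (Calcoco2) and 0 lower, with 11 and 6 at that unadjusted p. In S8, 5 were called higher and 2 lower, in T2 2 higher and 1 lower, and a difference between the 5 lines was called for 9 (16.7%, 10.5% and 34.5% of all tested genes). The median log2 difference of the tested neighbours was -0.17 in 16-6 minus R1 and 0.06 in 32 minus R1. Skap2, beside the Hoxa cluster, was at 40.7 and 37.5 FPKM in R1, 30.4 and 25.6 in 16-6 and 33.8 and 35.5 in 32. Mtx2, next to Hoxd1, was at 37.4 and 39.2 in R1, 41.1 and 42.9 in 16-6 and 51.3 and 44.8 in 32. Evx1, the homeobox gene beyond Hoxa13, stayed between 0.0792 and 0.897 FPKM over the 8 libraries.

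**Figure D3:**
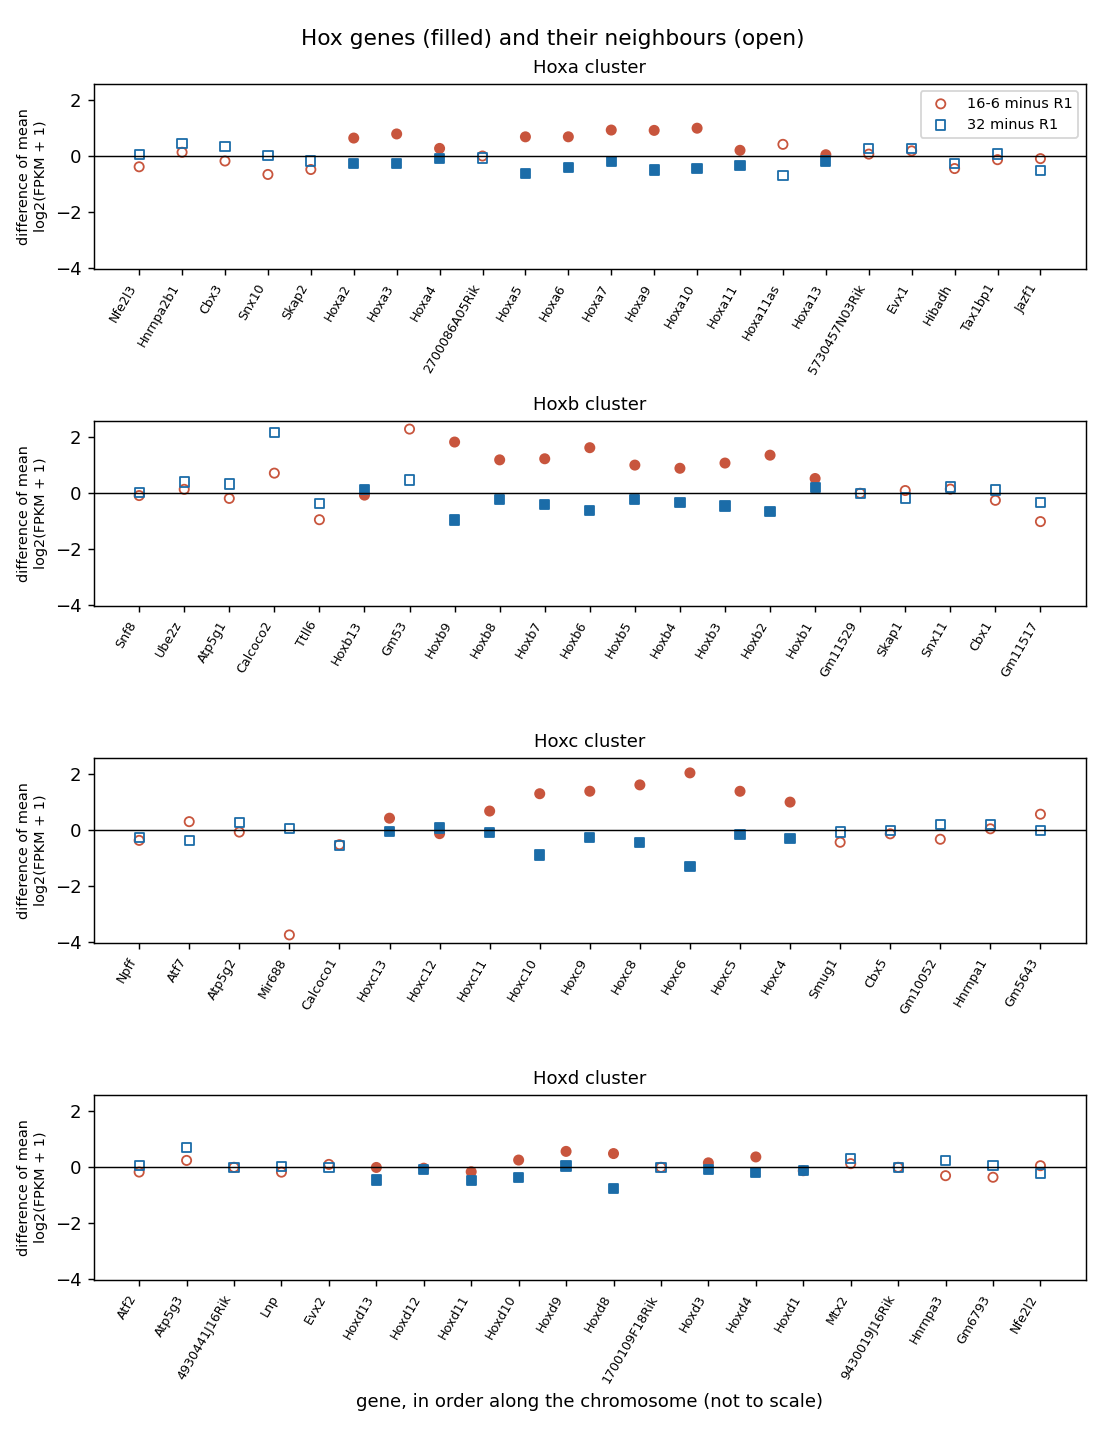
Difference of the mean log2(FPKM + 1) from R1 in 16-6 (circles) and 32 (squares) for the Hox genes (filled) and the 5 entries on each side and other entries inside (open), in order along each cluster and not to scale. The filled circles of 16-6 lie above 0 for most Hox genes, and most open symbols of the neighbours lie near 0, with Calcoco2, Gm11517 and Mir688 farther off. The microRNA entries inside the clusters are left out, and Mir688 beside Hoxc rests on 1 fragment in each of the libraries where it is above 0.

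The genes that act with or upstream of the Hox genes were compared by lists of known factors. Of the 9 Hox cofactors (Meis, Pbx and Pknox genes, whose proteins bind DNA together with Hox proteins), all 9 were tested and 0 were called by limma in 16-6 or in 32 against R1, with 4 higher and 1 lower in 16-6 and 2 higher and 5 lower in 32 at an unadjusted p below 0.05. Between 16-6 and 32, 3 were called higher in 16-6, Meis1 and Meis2 among them. Meis1 was at 2.17 and 2.69 FPKM in R1, 3.88 and 4.05 in 16-6, 0.869 and 1.04 in 32, 0.876 in S8 and 0.748 in T2, so its order over R1, 16-6 and 32 was that of most Hox genes. Of 29 chromatin regulators found (Polycomb, Trithorax and CTCF genes), 29 were tested and 0 were called by limma in 16-6 or in 32 against R1, with 7 higher and 17 lower in 16-6 and 15 higher and 5 lower in 32 at an unadjusted p below 0.05. In S8, 3 of them were called higher and 2 lower, in T2 1 higher and 0 lower, and a difference between the 5 lines was called for 9. Ezh2, the methyltransferase of Polycomb complex PRC2, was at 87.8 and 85.8 in R1, 64.6 and 64.4 in 16-6 and 95.2 and 102 in 32. Mll1, which sustains Hox transcription, was at 13.7 and 13.9 in R1, 17.9 and 18.0 in 16-6 and 15.6 and 15.4 in 32.

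The list of upstream activators and retinoic acid genes (24 genes, 18 tested) had calls in both directions. In 16-6 against R1, 3 were called higher (Cdx1, Fgf8 and T) and 1 lower (Cyp26b1). In 32 against R1, 4 were called higher (Cdx1, Fgf8, T and Cyp26a1) and 3 lower (Aldh1a3, Crabp1 and Cyp26b1). Cdx1, an activator of Hox genes in the primitive streak, was at 0.584 and 0.122 FPKM in R1, 5.03 and 3.83 in 16-6, 5.29 and 6.84 in 32, 0.187 in S8 and 0.712 in T2. T, the brachyury factor of the primitive streak, was at 1.87 and 2.28 in R1, 11.8 and 11.6 in 16-6, 18.8 and 17.5 in 32, 0.578 in S8 and 2.85 in T2. Fgf8 was at 2.24 and 1.65 in R1, 20.8 and 22.6 in 16-6, 16.2 and 18.4 in 32, 8.74 in S8 and 28.3 in T2. Crabp1, which binds retinoic acid, was at 665 and 670.2 in R1, 762 and 792 in 16-6, 66.9 and 59.1 in 32, 232 in S8 and 172 in T2.

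Fibroblast genes varied between the lines together with part of the Hox pattern. The summed FPKM of 19 fibroblast genes was 1279 and 1397 in R1, 3287 and 3309 in 16-6, 187 and 189 in 32, 688 in S8 and 916 in T2, and none of the 19 was at 0 in any library. As for the Hox sum, 16-6 was highest and 32 lowest, but S8 and T2 lay below R1 here and level with R1 in the Hox sum. In 16-6 against R1, 9 of the 19 were called higher and 2 lower, and single genes ranged from 0.136 to 14.4 times R1 with a median of 1.80. Acta2, the smooth muscle actin of activated fibroblasts, was at 68.7 and 65.5 in R1 and 966 and 968 in 16-6. Dcn, a matrix proteoglycan, was at 217 and 204 in R1 and 32.9 and 33.3 in 16-6. Pdgfra was at 9.18 and 9.92 in R1 and 8.82 and 9.22 in 16-6. In 32 against R1, 17 were called lower and 0 higher (18 and 1 at an unadjusted p below 0.05), and the median gene was at 0.0865 times R1, against 0.270 times for the 38 Hox genes with a fragment in R1. In S8 and T2 the median fibroblast gene was at 0.410 and 0.391 times R1, and the median Hox gene at 1.11 and 0.944 times. Per 1000 FPKM of the fibroblast list, the Hox genes amounted to 18.1 and 16.8 FPKM in R1, 26.7 and 24.7 in 16-6, 55.2 and 51.0 in 32, 33.4 in S8 and 24.4 in T2. The part of feeder RNA in the Hox levels was not tested.

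**Figure D4:**
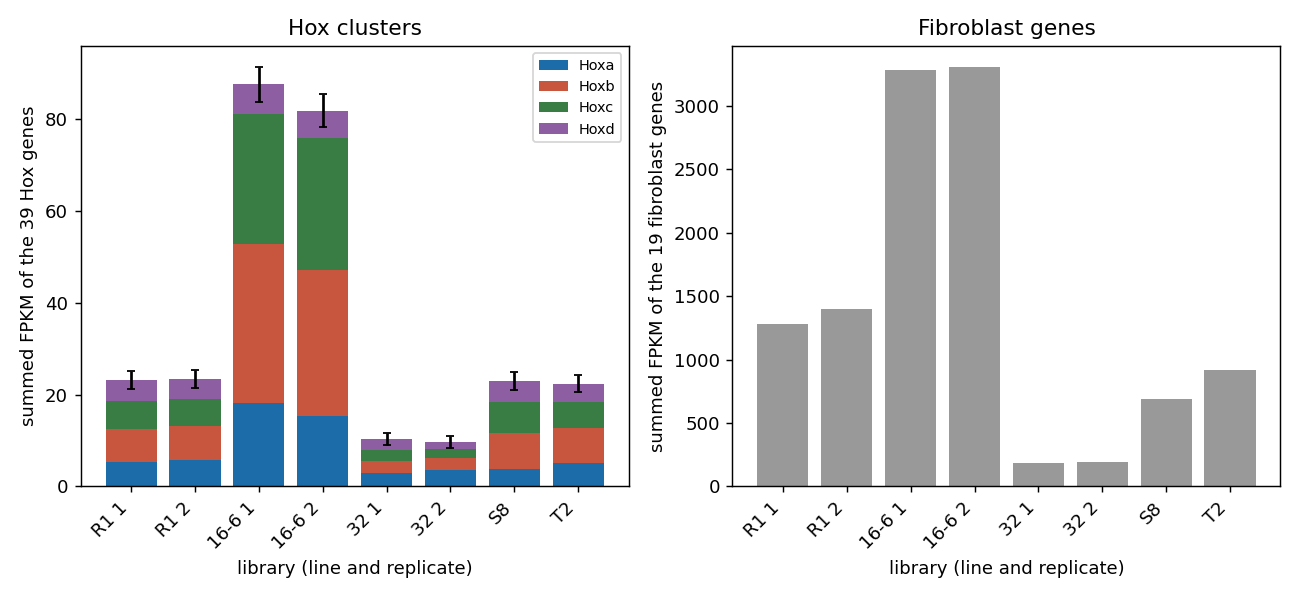
Summed FPKM of the 39 Hox genes by cluster (left, stacked bars, with 95% counting error of the total) and of 19 fibroblast genes (right) in each of the 8 libraries. Both sums are highest in the 2 libraries of 16-6 and lowest in those of 32, while S8 and T2 are level with R1 on the left and below it on the right.

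Other lists of cell type markers ordered the lines in other ways than the Hox sum. The summed FPKM of 13 pluripotency genes was 4745 and 5106 in R1, 3068 and 3130 in 16-6, 5939 and 5201 in 32, 5901 in S8 and 3938 in T2, and 2 of them (Esrrb and Zfp42) were called lower in 16-6 than in R1. At an unadjusted p below 0.05, 12 were lower and 1 higher in 16-6 than in R1, and 13 were lower than in 32. Primitive streak and mesoderm genes (5 in the list) summed to 6.26 and 6.15 in R1, 22.6 and 22.4 in 16-6, 35.9 and 36.0 in 32, 4.65 in S8 and 9.19 in T2, with the highest values in 32. Neural progenitor genes (6) summed to 13.3 and 13.6 in R1, 51.2 and 49.3 in 16-6, 35.7 and 35.0 in 32, 22.8 in S8 and 41.1 in T2. The hematopoietic list summed to 34.2 and 34.8 in R1 and 17.3 and 17.1 in 16-6, of which Cd34 and Runx1 made up most. It came to 3.64 and 3.60 in 32, 9.05 in S8 and 8.53 in T2. In this list 16-6 was thus below R1 but above the other iPSC lines, and 32 was lowest as in the Hox sum. Hbb-b1 and 1 of the entries of Hba-a1 were at 0 in all libraries. The adipocyte list came to between 2.69 and 17.3 FPKM, the epidermis list to between 3.48 and 5.34, the stomach list to between 2.13 and 7.24 and the primitive endoderm list to between 1.52 and 3.72 over the 8 libraries. The part of these cell types in the Hox levels was not tested.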

How the data were processed

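RNA-seq of polyadenylated RNA (TruSeq) was analysed for 8 libraries grouped by the labels into R1, 16-6 and 32 (2 libraries each), S8 and T2 (1 each). The authors aligned reads to mm9 with TopHat2 2.0.4 and Bowtie and deposited FPKM values with 95% confidence limits from Cufflinks 2.0.0, per the submitters' notes. The paper names another Cufflinks version and calls the unit RPKM. The deposited FPKM were divided by 12725.7 (median library total to 1000000). Fragments were implied from the confidence limits and totalled 15480674 to 16682395 per library. Among the 312 member values, 92.3% were whole (tolerance 0.01 up to 50 fragments). Intervals and the limit of 3 fragments for a count of 0 cover counting error only. The labels call the material embryos, whereas the paper describes cell lines.

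Differences were tested with limma 3.58.1 (R 4.3.3) on log2(FPKM + 1), with a trend, over the 13693 entries that reached 1 FPKM in any library, fitted over the 8 libraries together. S8 and T2 were assumed to vary like the other lines. A call required a log2 difference of 1 or more and a p under 0.05 after Benjamini-Hochberg adjustment over all tested entries. Members passing the filter are named with values in every library, the others by range and counts, and other genes come from lists of cofactors, regulators, neighbours and cell type markers. The results of some genes are not reported here. Members and lists were chosen with earlier results of these data known. On simulated data for 16-6 minus R1 (13119 genes), 90 of 100 genes changed 2.5-fold and 94 of 100 changed 4-fold were called, with 8 false calls. The changed genes were drawn from those with a higher mean FPKM than most members have, so these shares do not hold for most Hox genes. At the median member level in R1, 0.428 FPKM, even a 4-fold rise stays under the fold minimum. Alternatives were the pseudocount, filters, the fold minimum, quantile normalization, eBayes without a trend, 3 lines only, the replicate block and leaving out each library. Sums and intervals were computed in Python 3.11.15 (scipy 1.17.1, numpy 2.4.6, pandas 2.3.3).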

Additional observations from a re-analysis of the deposited data

Results flagged for a closer look

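For 21 members the difference from R1 was positive in 16-6 and negative in 32, and the difference between these lines was called by limma. Of these, 12 passed the FPKM filter only through 16-6 and so entered the test by being high there. The call alone, higher in 16-6 than in 32, was made for 9.22% of all tested genes. The share of all genes that meet both conditions was not computed. Both comparisons share the R1 libraries, so the direct log2 difference of 16-6 minus 32 is given. In the Hoxa cluster it was 1.05 for Hoxa3, 1.30 for Hoxa5, 1.10 for Hoxa6, 1.11 for Hoxa7, 1.41 for Hoxa9 and 1.43 for Hoxa10. In the Hoxb cluster it was 2.01 for Hoxb2, 1.53 for Hoxb3, 1.23 for Hoxb4, 1.24 for Hoxb5, 2.24 for Hoxb6, 1.63 for Hoxb7, 1.41 for Hoxb8 and 2.78 for Hoxb9. In the Hoxc cluster it was 1.30 for Hoxc4, 1.53 for Hoxc5, 3.35 for Hoxc6, 2.05 for Hoxc8, 1.65 for Hoxc9 and 2.19 for Hoxc10. In the Hoxd cluster it was 1.23 for Hoxd8. Under quantile normalization the sign of 32 minus R1 turned for Hoxa7 and Hoxc5. The part of feeder RNA in these differences was not tested.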

How the results depend on the processing

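The 16-6 minus R1 and 16-6 minus 32 counts kept their direction under all alternatives run. With a pseudocount of 0.1, 23 members were called in 16-6 minus R1, 16 in 32 minus R1, 4 in S8, 4 in T2 and 1 in the mean of the iPSC lines. In the same order, 1690, 2258, 3172, 2198 and 1664 of the 13693 entries were called in either direction. Without the fold minimum the counts were 25, 16, 5, 7 and 10, and over the 13693 entries they were 7610, 8428, 9127, 7932 and 8907. With FPKM of at least 1 in every library a single member was left, and the counts were 1 for 16-6 minus R1, 0 for 32 minus R1, 1 for 16-6 minus 32 and 1 for any difference. Over the 10994 entries left they were 565, 740, 859 and 3483. Quantile normalization gave 0 in 32 minus R1 and 1 in T2, against 1143 and 1460 of the 13693 entries. A pseudocount of 0.1 without a filter, chosen after seeing the data, gave 20 in 32 minus R1, 3 in S8, 4 in T2 and 2 in the mean of the iPSC lines. Over the 22878 entries that setting gave 2684, 3463, 2377 and 2024 in the same order. Under quantile normalization the cluster sums were 4.08 in R1 and 4.36 in 32 for Hoxa, 5.77 in R1, 31.0 in 16-6 and 3.75 in 32 for Hoxb, 4.65, 26.5 and 3.13 for Hoxc, and 3.42, 5.72 and 2.54 for Hoxd. Counted by at least 1 fragment instead of 1 FPKM, detected members were 38 in R1, 39 in 16-6, 37 in 32, 35 in S8 and 36 in T2. The cause of these changes was not tested. Leaving out 1 library gave 12 to 16 members in 16-6 minus R1 and 20 to 22 in 16-6 minus 32. The replicate block gave 15, 1 and 21 members, as without it, and same-numbered libraries did not deviate together (r of -0.097, 0.001 and 0.028), so the numbers do not pair the samples. Of the alternative values of called members' log2 differences, 544 kept direction and call, 13 lost the call and 0 reversed. Members that a filter removed are not in this tally. With FPKM of at least 1 in every library it holds 2 values, and the other called members were not fitted. The 13 members below the FPKM filter rest on at most 24 fragments in any library and were not tested with the filter.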
